A study of Danio rerio with 6 samples.

Results

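The genes described here encode the ligands, receptors and adhesion molecules of axon guidance, measured in the olfactory rosettes of adult zebrafish (Danio rerio). They were taken by symbol from the annotation of the array: semaphorins, plexins, neuropilins, Robo receptors, Slits, Eph receptors, ephrins, netrins and their receptors, anosmins, the Ncam, L1cam, contactin and Alcam adhesion molecules, the dpysl genes and gap43. The selection gave 48 of the 5355 genes named on the array, and 53 of its 16227 gene probes, 1 of which the annotation assigns to 2 plexin genes and is given without a name. No probe carried a dcc, unc5 or dpysl symbol. One probe, that of cntn1b, lay in a part of an array that had been misread, which left 52 probes tested.

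A growing axon carries at its tip a growth cone that reads attractive and repulsive cues, some secreted and some bound to neighbouring cells, and adhesion molecules bind axons into bundles. Olfactory sensory neurons are renewed throughout life, so in the adult olfactory organ new axons keep growing along the olfactory nerve to the olfactory bulb. Slits act through Robo receptors, class 3 semaphorins through neuropilins and plexins, ephrins through Eph receptors and netrins through Dcc and Unc5.

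Rosettes of homozygous mutants of rag1, a gene that lymphocytes need to rearrange their antigen receptors, gave 3 samples, and rosettes of their wild-type siblings gave 3. All fish were untreated, of mixed sex and 1 to 2 years old. The labels name neither the rag1 allele nor the number of fish in a sample, and they do not state separate animals for separate samples. The p-values therefore rest on the differences among these samples alone, some or all of which may be technical. Each sample was hybridised to 1 array in 1 colour, and arrays are named by group and number. For mutant array 2 a source label reads wild type while its title and strain name the mutant; it counts as a mutant array here.

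Across 15611 tested probes the arrays correlated at 0.981 or more within a group and at 0.963 to 0.973 between groups, and the median gene spot was 4.75 to 7.21 times as bright as the blank spots. The rag1 probe read 6.48 to 6.74 (log2) on 5 arrays, close to the blank spots, and 11.92 on mutant array 3, so it checks no label. Genes listed for olfactory sensory neurons were above the blank spots on every array for 11 of 11 measured, beside 97.1% of all tested probes. This count therefore checks neither the tissue nor the quality of the arrays. Values are background-corrected, quantile-normalized log2 brightness, and the brightness of different probes cannot be compared. On this scale the lowest readings above the blank spots were 6.13 to 6.19 on mutant arrays and 6.10 to 6.29 on wild-type arrays. Of the 52 guidance probes, 14 lay within 1 log2 unit of that floor in both groups, where differences are compressed, and none was saturated.

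In the mutants both anosmin genes and robo3 were lower, by log2 differences of -0.90 (anos1b, 1.86-fold), -0.74 (anos1a, 1.67-fold) and -0.59 (robo3), and no guidance gene passed the test in the other direction. Semaphorins, plexins, ephrins, Eph receptors, netrins, Slits and gap43 included no probe that passed. The test was limma's moderated test per probe, with Benjamini-Hochberg adjustment over all 15611 probes and a threshold of 0.05. Of the 52 probes, 3 were called, 5.77% beside 4.79% of all probes, and all 3 were lower, beside 2.36% of all probes called lower and 2.43% called higher. That share of calls is near the background, so the result concerns these 3 genes and not guidance genes as a class.

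The median log2 difference was 0.00 over the guidance probes and 0.01 over all probes, and 26 of 52 lay below 0, beside 48.6% of all probes. At 15 of 52 probes the 2 groups of arrays were apart, with no overlap of their readings (28.8%, beside 25.7% of all probes). Of these, 10 were lower in the mutants, beside 12.8% of all probes, and 5 were higher, beside 13% of all probes. No guidance probe differed by 2-fold or more, beside 3.33% of all probes. For 48 of the 52 probes the 95% confidence interval lay within a 2-fold difference in either direction (92.3%, beside 84.8% of all probes). The exceptions were anos1a, anos1b, epha2a and plxnc1. All probes near the floor except plxnc1 are among the 48. Differences are compressed there, so for them a narrow interval does not bound the change in RNA. Leaving out 1 array reduced the 3 calls to 0 without mutant array 1, 2 or 3 or wild-type array 3, and to 1 without wild-type array 1 or 2. The 747 calls among all probes became 247, 493 and 298 without mutant arrays 1, 2 and 3. They became 598, 296 and 299 without wild-type arrays 1, 2 and 3.

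**Figure D1:**
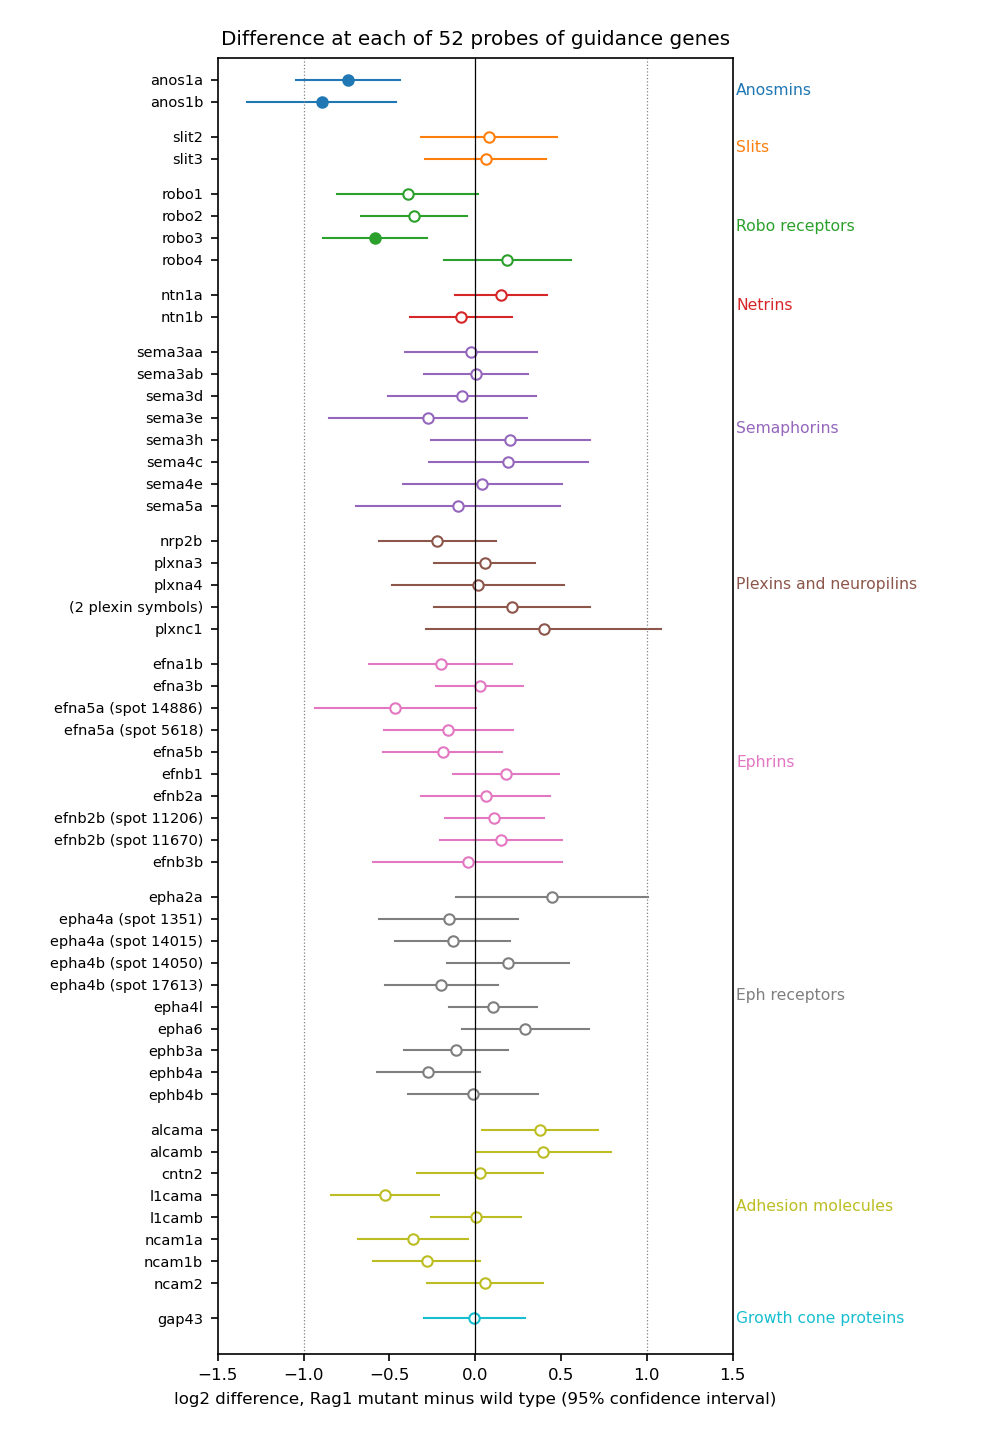
Log2 difference (Rag1 mutant minus wild type, 3 arrays each) with its 95% confidence interval for the 52 tested guidance probes, grouped by family. Filled points passed the test, namely anos1a, anos1b and robo3, and the dotted lines mark a 2-fold difference.

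The anosmins are secreted glycoproteins of the extracellular matrix. In humans the gene ANOS1 is mutated in X-linked Kallmann syndrome, in which the sense of smell is lost or reduced, and zebrafish carry a pair of such genes. The anos1a probe (spot 13201) read 8.05, 7.81 and 7.90 on mutant arrays 1 to 3, against 8.57, 8.62 and 8.80 on wild-type arrays 1 to 3 (log2 brightness). Each mutant array was below each wild-type array, with a gap wider than the spread within either group. The means were 7.92 ± 0.12 in mutants and 8.66 ± 0.12 in wild type (SD, n = 3 arrays each), a log2 difference of -0.74 (SE 0.13, 95% interval -1.05 to -0.44, limma adjusted p = 0.0239).

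For anos1b (spot 10001) the mutant arrays read 11.48, 11.45 and 11.46, against 12.72, 12.00 and 12.35 on the wild-type arrays. The mutant arrays lay almost on top of each other, while the wild-type arrays spread over a wide range above them. The means were 11.46 ± 0.02 in mutants and 12.36 ± 0.36 in wild type (SD, n = 3 arrays each), a log2 difference of -0.90 (SE 0.19, 95% interval -1.33 to -0.46, limma adjusted p = 0.0405). Both spots had uneven pixels on every array, with a pixel SD of 0.300 to 0.539 times the mean for anos1a and 0.480 to 0.589 times for anos1b. Among the guidance spots only epha4a spot 1351, with 0.484 to 0.705 times, was as uneven as anos1b on every array. Values in the anos1a range were found at other spots, such as alcamb with 0.365 to 0.476 times. Whether each probe also detects the other anosmin transcript was not tested, so the 2 probes may not be independent.

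The 2 anosmin differences kept their sign under all 18 alternatives tried. They ran from -0.89 to -0.52 at anos1a and from -1.07 to -0.72 at anos1b. The anos1a call was kept when wild-type array 1 was left out and lost without any other single array (limma adjusted p up to 0.0784). The anos1b call was kept without wild-type array 2 and lost without any other single array (limma adjusted p up to 0.116). It was also lost with no background correction (limma adjusted p = 0.0579) and with the misread block kept (limma adjusted p = 0.0521). In all, anos1a was called under 12 and anos1b under 10 of the 18 alternatives.

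Genes listed for olfactory neurons were lower in the same samples. Of 35 such genes 11 were measured. Of these 5 fell (cnga2, gng13b, sypa, cplx2a and sncb) and 11 of 11 were below 0, with a median log2 difference of -0.69. The differences ran from -1.26 at cplx2a to -0.001 at gnai2b, which is practically 0. The mean log2 brightness of the 11 genes was 11.19 to 11.47 on mutant arrays and 11.91 to 12.18 on wild-type arrays. Among the 11, sypa, sypb, snap25a, snap25b, syt1a, cplx2a and sncb are presynaptic genes, which are not particular to olfactory neurons. Of 20 markers of neuronal progenitors and young neurons 2 fell, with a median of -0.23 and a mean brightness of 10.66 to 10.75 on mutant and 10.94 to 11.04 on wild-type arrays. Of 10 macrophage and 7 neutrophil markers, 5 and 4 rose, with medians of 0.96 and 1.39. Of 6 red cell markers 1 rose (median 0.88). Of 7 T cell markers 2 fell, zap70 (-2.06) and trac (-1.10). In that list 3 markers lay below 0 and 4 above, with a median of 0.38. The markers above 0 were runx3 (0.73), tox (0.56), ikzf1 (0.38) and the rag1 probe (1.84), which was high on mutant array 3 only. None of these was called, so the median shows no rise of T cell genes. Beside these counts, 2.36% of all probes were called lower and 2.43% higher. The lists are short, so the counts describe their genes only. Which cells carry the anosmin or Robo transcripts was not measured. In RNA of a whole organ, fewer cells of a type and less RNA per cell cannot be told apart, and the part of these marker changes in the anosmin and robo3 results was not tested. Glia (7 markers, median 0.29), endothelium (4, -0.02), surface epithelium (11, 0.03), central neurons (8, -0.03) and skeletal muscle (12, 0.10) had no marker called in either direction. The mean brightness of the glia markers was still higher in the mutants, at 10.77 to 11.00 on mutant and 10.62 to 10.67 on wild-type arrays. That of the muscle markers was 8.49 to 8.50 on mutant and 8.30 to 8.46 on wild-type arrays. For endothelium, surface epithelium and central neurons these means overlapped. Those of the central neuron markers were low, at 7.11 to 7.14 on mutant and 7.13 to 7.22 on wild-type arrays. Most of these markers, and some of muscle, endothelium and glia, lay near the floor, where differences are compressed. The glia marker glulb read near the top of the scale, with means of 15.97 in mutants and 16.00 in wild type. At such markers a change could go unseen.

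Robo receptors are transmembrane proteins, some of which bind Slits and turn axons away from them. The robo3 probe, for a receptor that in mammals lets commissural axons cross the midline, read 8.37, 8.32 and 8.39 on mutant arrays and 9.11, 8.78 and 8.94 on wild-type arrays. All mutant arrays lay below all wild-type arrays. The log2 difference was -0.59 (SE 0.13, 95% interval -0.89 to -0.28) with a limma adjusted p = 0.0495, which only just passed. The call was kept under 2 of 18 alternatives, with adjusted p-values from 0.0481 to 0.184, and it was lost without any 1 of the 6 arrays, while the difference stayed between -0.67 and -0.43 on the log2 scale.

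The robo2 probe, for the receptor that is defective in the zebrafish mutant astray, read 9.68, 9.93 and 9.61 on mutant arrays, against 10.02, 10.13 and 10.14 on wild-type arrays. The groups did not overlap, and the log2 difference of -0.36 (SE 0.13) did not pass (limma adjusted p = 0.173). For robo1 the readings were 11.79, 11.42 and 11.40 on mutant arrays and 12.08, 12.07 and 11.64 on wild-type arrays. Mutant array 1 lay above wild-type array 3, and the log2 difference was -0.39 (SE 0.18, limma adjusted p = 0.258). At robo4, a receptor best known from blood vessels, the readings of 7.09, 6.97 and 7.20 on mutant arrays overlapped those of 6.64, 6.92 and 7.14 on wild-type arrays, all near the floor. Its log2 difference was 0.19 (95% interval -0.18 to 0.56). Whether robo4 differs from the other Robo genes in its response was not tested.

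**Figure D2:**
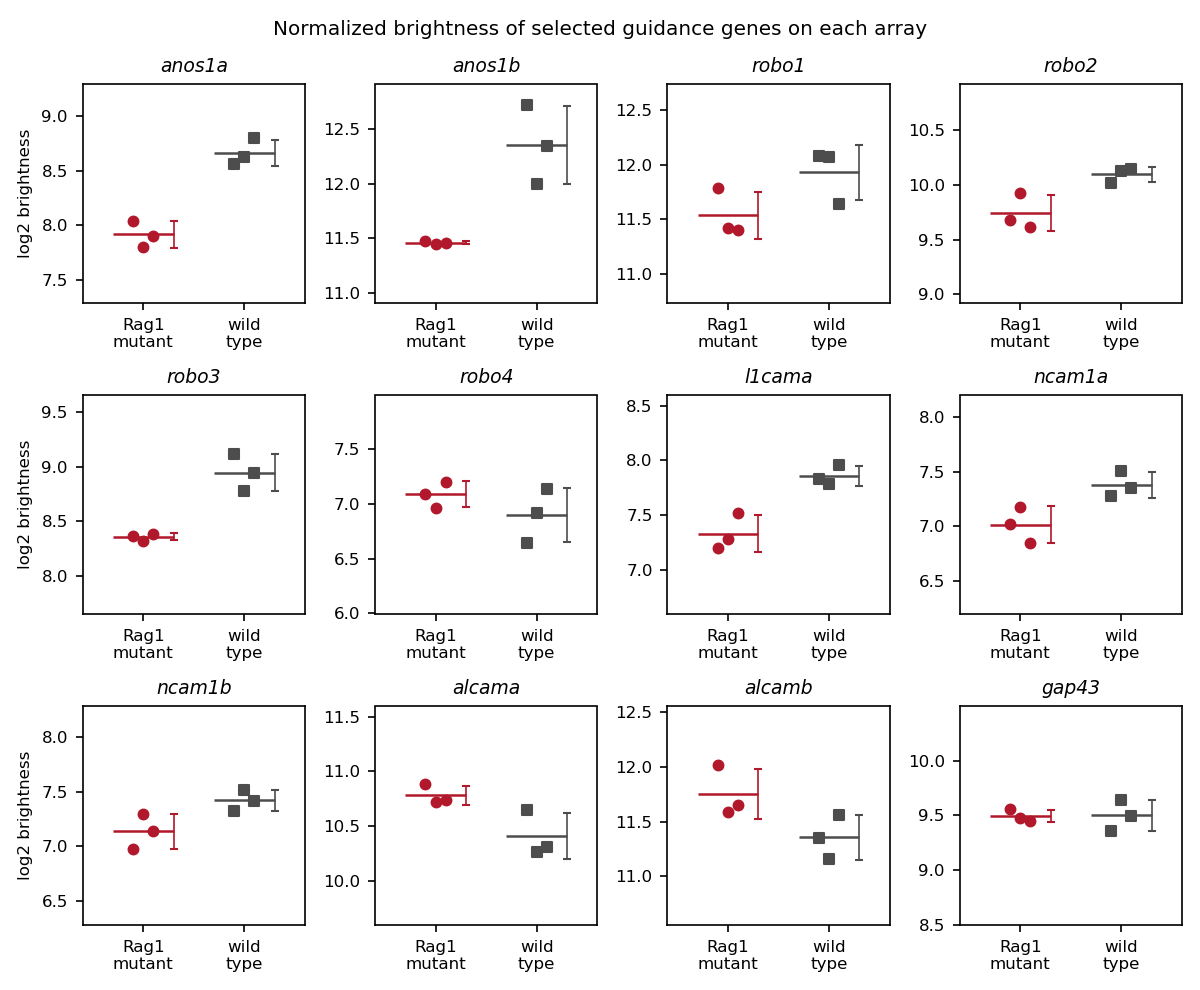
Normalized log2 brightness on each array for 12 guidance genes, Rag1 mutant arrays as circles and wild-type arrays as squares, each group in the order of array 1 to 3. Horizontal lines are means, bars beside them are SDs (n = 3 arrays), and each panel spans 2 log2 units. The groups are apart at anos1a, anos1b, robo2, robo3, l1cama, ncam1a, ncam1b, alcama and alcamb, and they overlap at robo1, robo4 and gap43.

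The Slits, secreted repellents of the Robo receptors, had small differences. At slit2 the readings were 8.65, 8.88 and 8.80 on mutant arrays, against 8.88, 8.37 and 8.84 on wild-type arrays, a log2 difference of 0.08 with a 95% interval of -0.31 to 0.47. At slit3, near the floor, the difference was 0.06 (95% interval -0.29 to 0.41).

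Netrins are secreted cues that attract or repel an axon according to the receptor it carries. Both netrin probes read close to the blank spots. At ntn1a the mutant arrays read 6.70, 6.55 and 6.58 and the wild-type arrays 6.48, 6.48 and 6.42, groups that did not overlap although the log2 difference was only 0.15 (SE 0.11, limma adjusted p = 0.534). At ntn1b the difference was -0.08, and the groups overlapped.

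Class 3 semaphorins are secreted repellents, while classes 4 and 5 are bound to membranes. None of the 8 semaphorin probes passed the test or had groups that did not overlap, and the log2 differences ran from -0.27 (sema3e) to 0.20 (sema3h). The sema3e probe read 9.77, 9.56 and 10.19 on mutant arrays and 10.60, 9.94 and 9.81 on wild-type arrays. Its difference rested on wild-type array 1 and was -0.03 without it. The 2 sema3a genes, sema3aa and sema3ab, differed by -0.03 and 0.01 with intervals of -0.41 to 0.36 and -0.30 to 0.31. Class 4 and 5 members differed by 0.19 (sema4c), 0.04 (sema4e) and -0.10 (sema5a).

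Neuropilins bind class 3 semaphorins and plexins carry the signal into the cell. The neuropilin nrp2b read 8.35, 8.68 and 8.60 on mutant arrays, against 8.60, 8.91 and 8.78 on wild-type arrays, a log2 difference of -0.22 (SE 0.15, limma adjusted p = 0.461). The groups overlapped. The class A plexin genes differed by 0.06 (plxna3) and 0.02 (plxna4), and the probe with 2 plexin symbols by 0.21 (limma adjusted p = 0.615). At plxna4 the mutant arrays read 8.83, 8.40 and 8.93 and the wild-type arrays 8.38, 9.05 and 8.67.

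The plxnc1 gene encodes a plexin that in mammals is the receptor of semaphorin 7A and is also found on leukocytes. Its probe read 6.75, 6.70 and 7.85 on mutant arrays, against 6.70, 6.67 and 6.74 on wild-type arrays. Only mutant array 3 stood clear of the floor. The log2 difference of 0.40 (SE 0.29, limma adjusted p = 0.511) was 0.03 without mutant array 3. On that array the rag1 probe also stood far above its level on the other 5. The pixel SD of the plxnc1 spot was 0.321 times the mean there, against 0.155 to 0.195 times on the other 5 arrays. At probes of about that brightness it ran from 0.269 to 0.359 times (ephb4a) and from 0.222 to 0.269 times (efnb3b). The cause of the high reading was not tested.

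Ephrins are bound to the cell surface, A-type ephrins by a lipid anchor and B-type ephrins by a transmembrane stretch, and signal to Eph receptor tyrosine kinases on contact. Of 10 ephrin probes for 8 genes, 5 lay below 0 and 5 above, and none passed. The widest difference was at the efna5a probe of spot 14886, with 10.40, 10.55 and 9.98 on mutant arrays and 10.61, 10.62 and 11.09 on wild-type arrays. These groups were apart by a narrow margin, with a log2 difference of -0.46 (SE 0.20, limma adjusted p = 0.241). That difference was -0.30 without mutant array 3 and -0.31 without wild-type array 3. The other efna5a probe, spot 5618, read 6.83, 7.18 and 6.72 on mutant arrays and 6.91, 7.20 and 7.10 on wild-type arrays, close to the floor, with a difference of -0.16. The related efna5b differed by -0.19 and efna1b by -0.20, while efna3b, with a difference of 0.03, had groups that did not overlap although all 6 readings lay between 6.70 and 6.74.

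Among the B-type ephrins, efnb1 differed by 0.18 and efnb2a by 0.06. The 2 probes of efnb2b both had small differences above 0. At spot 11670 the readings were 8.21, 8.13 and 8.38 on mutant arrays and 7.84, 8.24 and 8.20 on wild-type arrays, a difference of 0.15, and at spot 11206 they were 7.47, 7.23 and 7.32 on mutant arrays and 7.29, 7.23 and 7.16 on wild-type arrays, a difference of 0.11. Single arrays moved both, to 0.03 at spot 11670 without wild-type array 1 and to 0.05 at spot 11206 without mutant array 1. At efnb3b the difference was -0.04, with a 95% interval of -0.59 to 0.51.

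Of 10 Eph receptor probes for 8 genes, none passed, and log2 differences ran from -0.27 (ephb4a) to 0.45 (epha2a). The epha2a probe read 9.94, 10.24 and 10.17 on mutant arrays, against 9.11, 9.94 and 9.96 on wild-type arrays. Wild-type array 1 was low, mutant array 1 lay at the level of wild-type arrays 2 and 3, and the difference (SE 0.24, limma adjusted p = 0.350) was 0.17 without wild-type array 1. At ephb4a the mutant arrays read 7.95, 8.11 and 7.85 and the wild-type arrays 8.23, 8.34 and 8.16. Its groups did not overlap (SE 0.13, limma adjusted p = 0.282), and its duplicate ephb4b differed by -0.01.

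The 2 epha4a probes differed by -0.15 (spot 1351) and -0.13 (spot 14015), values that single arrays moved. Spot 1351 gave -0.04 without mutant array 2 and -0.32 without mutant array 3, and spot 14015 gave -0.01 without wild-type array 3. At spot 1351 the mutant arrays read 8.50, 8.37 and 8.94 and the wild-type arrays 8.86, 8.62 and 8.80, while at spot 14015 the mutant arrays read 7.03, 7.09 and 7.14 and the wild-type arrays 7.07, 7.11 and 7.47. The 2 epha4b probes disagreed in sign. Spot 14050 read 7.18, 6.85 and 6.69 on mutant arrays and 6.78, 6.69 and 6.67 on wild-type arrays (0.19), and spot 17613 read 6.65, 6.69 and 6.70 on mutant arrays and 6.74, 6.77 and 7.12 on wild-type arrays (-0.20). Both lay near the floor, the groups were apart only at spot 17613, and neither passed. The differences were 0.05 without mutant array 1 at spot 14050 and -0.07 without wild-type array 3 at spot 17613. The epha4l probe differed by 0.10 with groups apart, and ephb3a by -0.11. At epha6 the readings were 14.64, 14.70 and 14.94 on mutant arrays and 14.70, 14.46 and 14.25 on wild-type arrays, a difference of 0.29 (SE 0.16, limma adjusted p = 0.356).

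Adhesion molecules of the immunoglobulin superfamily bind axons to each other and to their path. Of 8 such probes tested, none passed, and the groups did not overlap at 5, with 3 lower and 2 higher in the mutants, beside 25.7% of all probes apart, 12.8% lower and 13% higher. The L1-type gene l1cama read 7.20, 7.28 and 7.52 on mutant arrays, against 7.83, 7.79 and 7.96 on wild-type arrays. All mutant readings lay below all wild-type readings, and the log2 difference of -0.53 (SE 0.13) missed the threshold (limma adjusted p = 0.0730, with 0.0529 to 0.299 over the alternatives). Its duplicate l1camb, close to the blank spots, differed by 0.01 (95% interval -0.25 to 0.27).

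The neural cell adhesion gene ncam1a read 7.02, 7.18 and 6.85 on mutant arrays and 7.28, 7.51 and 7.35 on wild-type arrays. Its groups were apart with a log2 difference of -0.36 (SE 0.14, limma adjusted p = 0.187), and those of its duplicate ncam1b were apart with -0.28 (SE 0.13, limma adjusted p = 0.286). Over the alternatives the ncam1a difference ran from -0.55 to -0.18. The third gene, ncam2, differed by 0.06 and read close to the blank spots, as did the contactin cntn2 with 0.03.

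The 2 alcam genes were nominally higher in the mutants. Alcam, known in fish as neurolin, stands on growing axons, and in mammals it also binds CD6 on T cells. The alcama probe read 10.88, 10.72 and 10.74 on mutant arrays, against 10.65, 10.26 and 10.31 on wild-type arrays. For alcamb the readings were 12.01, 11.59 and 11.65 on mutant arrays and 11.35, 11.15 and 11.57 on wild-type arrays. In both cases the groups were apart, by a narrow margin at alcamb. The log2 differences were 0.38 (SE 0.14, limma adjusted p = 0.189) and 0.40 (SE 0.17, limma adjusted p = 0.235), neither of which passed. They were the only guidance probes above 0 with an unadjusted p under 0.05, beside 10.2% of all probes, against 6 probes below 0, beside 10.8% of all probes. Together these are 15.4% of the guidance probes, beside 21% of all probes. Macrophage and neutrophil markers were higher in the same samples (medians 0.96 and 1.39), and their part in the alcam readings was not tested.

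The contactin gene cntn1b lay in the misread block. With wild-type array 2, the misread array, left out and the block kept, it read 12.88, 12.85 and 12.32 on mutant arrays and 12.33 and 12.14 on wild-type arrays 1 and 3. The groups overlapped, and the log2 difference was 0.44 (SE 0.22, limma adjusted p = 0.359). This fit assumes that 2 wild-type arrays vary like the other group.

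The gap43 gene encodes a protein of the growth cone membrane that marks growing and regenerating axons. Its probe read 9.56, 9.48 and 9.45 on mutant arrays, against 9.36, 9.64 and 9.50 on wild-type arrays. The groups overlapped entirely. The means were 9.49 ± 0.06 in mutants and 9.50 ± 0.14 in wild type (SD, n = 3 arrays each), and the log2 difference of 0.00, of either sign under the alternatives, had a 95% interval of -0.30 to 0.29.

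**Figure D3:**
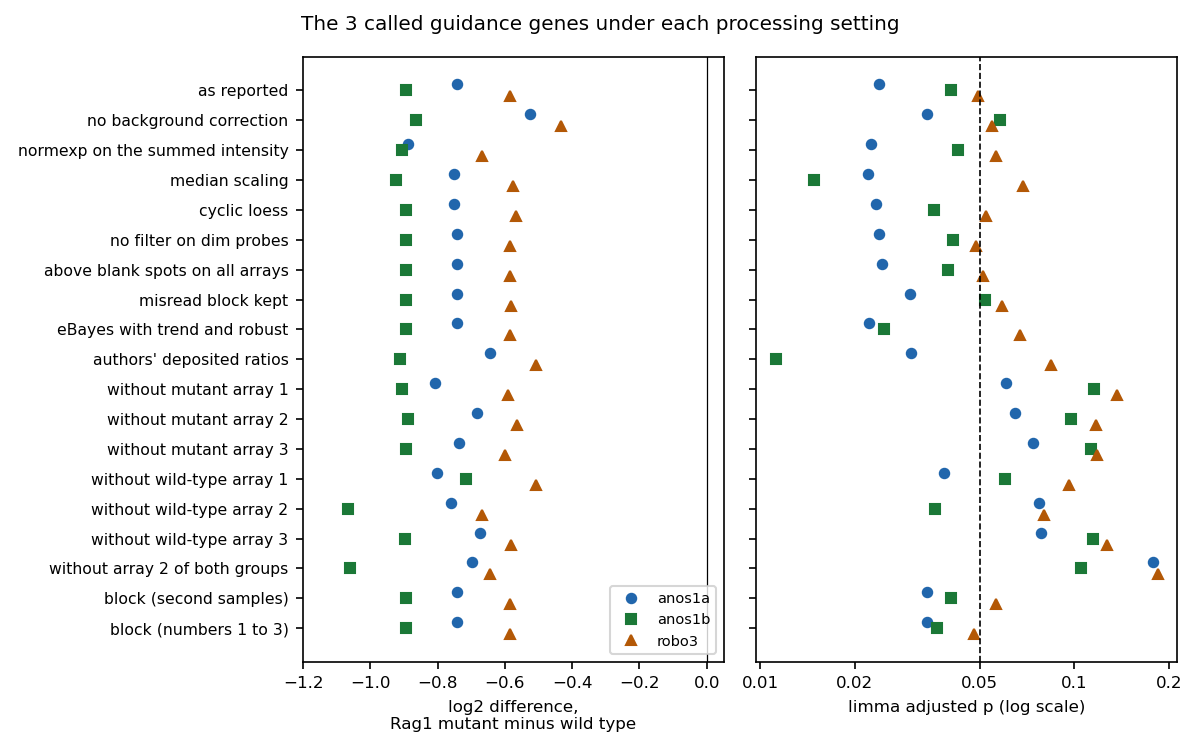
Log2 difference (left) and limma adjusted p on a log axis (right) of anos1a, anos1b and robo3 as reported and under 18 other settings. All differences stay below 0, while the adjusted p lies above the dashed threshold of 0.05 without any 1 array, except for anos1a without wild-type array 1 and anos1b without wild-type array 2.

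Further genes of axon guidance were taken from a list of 169 ligands, receptors and intracellular transducers outside these families, of which 57 were measured, each by its brightest probe. Among them 2 rose and none fell (3.51% called, beside 4.79% of all probes), the median log2 difference was 0.04, and the groups did not overlap at 28.1%, beside 25.7% of all probes. Of the genes with groups apart, 11 were lower and 5 higher in the mutants, beside 12.8% and 13% of all probes. Over all 57 genes, 27 differences lay below 0 and 30 above. Of the 35 transducers, 4 were apart and lower and 5 apart and higher, beside the same shares of all probes. At an unadjusted p under 0.05 there were 8 of 57 genes below 0 and 5 above, beside 10.8% and 10.2% of all probes.

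Both genes that rose act inside the cell. The srgap2 gene encodes a GTPase-activating protein of the Slit and Robo pathway, and read 12.36, 12.16 and 12.32 on mutant arrays, against 11.67, 11.37 and 11.75 on wild-type arrays. All mutant arrays lay above all wild-type arrays, with a log2 difference of 0.69 (SE 0.14, limma adjusted p = 0.0416). The rhobtb2b gene read 10.39, 10.67 and 10.18 on mutant arrays and 9.01, 9.39 and 9.56 on wild-type arrays. The groups were again apart, with a difference of 1.09 (SE 0.19, limma adjusted p = 0.0241). Leaving out any 1 array ended the srgap2 call, and the rhobtb2b call was lost without mutant arrays 1 or 2 or wild-type array 2.

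Of 11 receptors on that list none passed, 5 had groups apart and all 5 were lower in the mutants, beside 25.7% of all probes apart and 12.8% apart and lower. With 11 genes this count is a description of these receptors and no result about receptors as a class. They were the Wnt receptor genes fzd3a (-0.52, limma adjusted p = 0.109) and ryk (-0.41, 0.177), the receptor phosphatase genes ptprsa (-0.50, 0.0989) and ptprfa (-0.28, 0.208), and cxcr4a (-0.54, 0.201), 1 of 2 genes of the receptor for the chemokine Cxcl12. The other, cxcr4b, also known from leukocytes, differed by 0.41 (limma adjusted p = 0.456). A dimmer second probe of fzd3a differed by 0.29, while a second probe of ptprsa differed by -0.53.

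Of 11 ligands none passed. The widest difference was at bdnf, which encodes a neurotrophin, with readings of 11.28, 11.81 and 11.80 on mutant arrays and 11.82, 12.89 and 13.03 on wild-type arrays. The groups touched without overlapping, and the log2 difference was -0.94 (SE 0.33, limma adjusted p = 0.152). It passed without wild-type array 1 (-1.33, limma adjusted p = 0.0238), and with the sample number as a block (limma adjusted p = 0.0352).

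**Figure D4:**
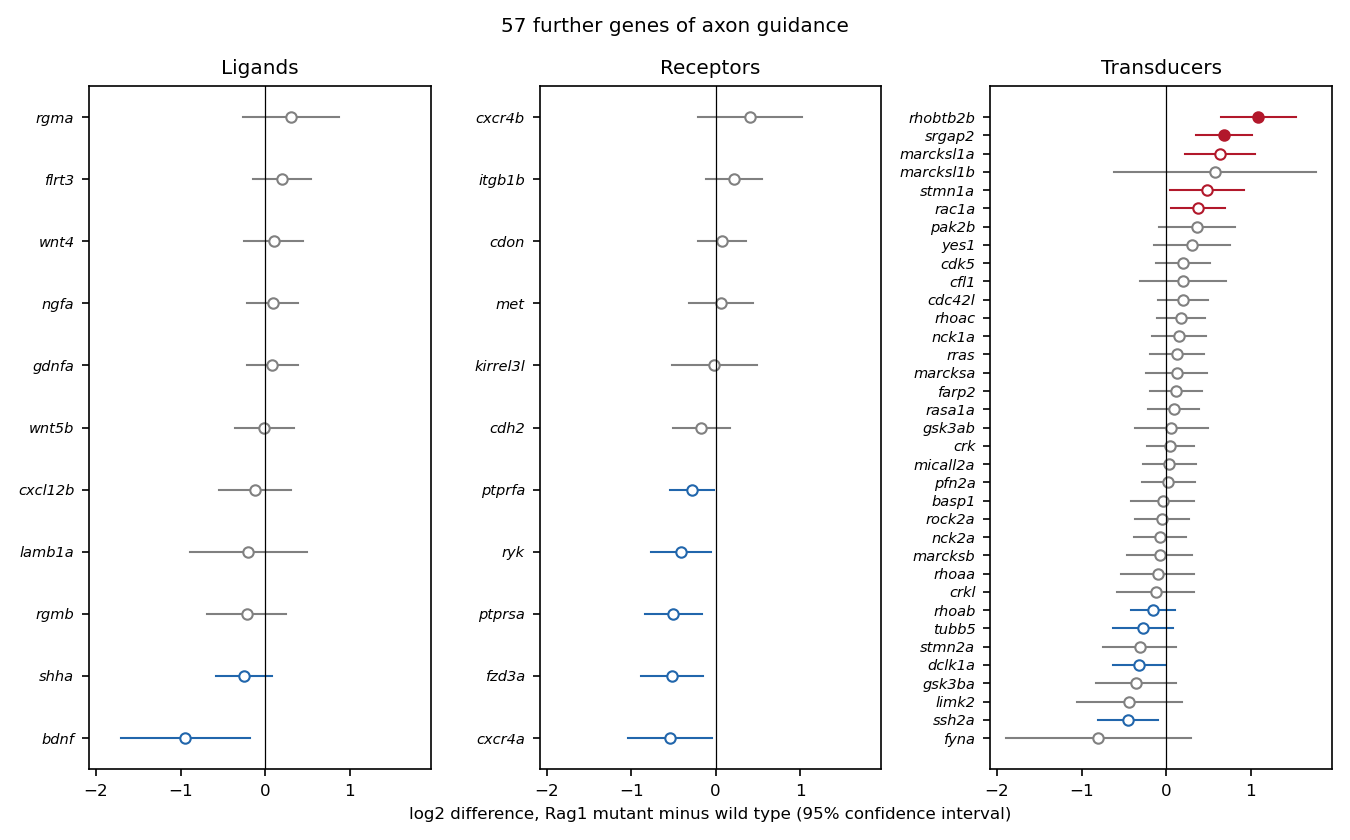
Log2 difference (Rag1 mutant minus wild type) with its 95% confidence interval for 57 further guidance genes by role. Colour marks genes whose groups do not overlap, red for higher and blue for lower in the mutants, and filled points (rhobtb2b and srgap2) passed the test.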

How the data were processed

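Olfactory rosette RNA of 6 samples was amplified by in vitro transcription, labelled and hybridised in 1 colour, per the labels' protocols. The deposited scanner tables give raw spot intensity and local background, with no subtraction recorded, per the file headers. The sources used here do not name scanner or software. The authors' deposited table of ratios, centred on each probe's median over arrays, was used only as an alternative. How it was scaled stays unknown.

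Intensities were divided by 100 pixels per spot. The 400 spots of 1 block, misread by 1 row on wild-type array 2 (r = 0.241 in place, 0.981 at 1 row on), and 1 unreadable spot were left out. Background was corrected with normexp (offset 50, limma 3.58.1, R 4.3.3), actin spots were averaged, other controls dropped, and 15885 probes quantile normalized. Probes were kept (15611) if in at least 1 group every array read above its own blank spots' 95th percentile. Groups were compared with lmFit and eBayes, two-sided, with the Benjamini-Hochberg adjustment, and the code was tested on simulated data.

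Symbols came from the platform annotation. The update to GRCz12tu changed none of the guidance symbols, and probes lacking a symbol stay unnamed. Probe positions and sequences were not used here. The guidance genes and all gene lists were chosen with earlier results of these data known. Values per array are given for probes past the threshold, for probes with an unadjusted p under 0.05 and groups apart, for the brightest and most different probe of each family, and for genes with several probes; of the further guidance genes, for called ones and the extremes. Other genes named were chosen after their values were seen. Alternatives covered background, normalization, filter, block, variance model, value source, left-out arrays and a replicate block. The number of arrays limits the precision.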

Additional observations from a re-analysis of the deposited data

How the results depend on the processing

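There were 18 alternatives, 1 of them added after the data were seen (the numbers 1 to 3 as a block). Under these anos1a, anos1b, robo1, robo2, robo3, l1cama, ncam1a, alcama and alcamb kept their sign. The genes slit2, plxna4 and gap43, all near 0 as reported, took either sign. They ran from -0.13 to 0.17 (slit2), from -0.14 to 0.35 (plxna4) and from -0.08 to 0.08 (gap43). With 3 guidance probes called as reported, 1 was called with no background correction and 1 with the misread block kept, and 0 to 1 with 1 array left out (limma, where 4 to 10 had an unadjusted p under 0.05). Among all probes, 747 calls became 247 to 598 with 1 array left out. Without array 2 of both groups there were 80 calls among all probes and 0 among guidance probes (limma, 6 at an unadjusted p under 0.05). Of the further guidance genes, 2 were called as reported, 1 with normexp on the summed intensity, 1 with median scaling, 1 with the misread block kept, and 0 to 3 with 1 array left out (limma, where 6 to 12 had an unadjusted p under 0.05). Without array 2 of both groups 0 were called (limma, 4 at an unadjusted p under 0.05). Fewer arrays were fitted wherever arrays were left out. The cause of the other changes was not tested.

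Both groups share a written number only for their second samples. With the second samples as a replicate block, 709 probes, 2 guidance probes and 2 further guidance genes were called. With numbers 1 to 3 as a replicate block, where 1 and 3 only follow the order of listing, the counts were 1117, 3 and 3. Deviations from the group means correlated at 0.317, 0.223 and 0.284 between arrays numbered 1, 2 and 3. Arrays of unlike number were not compared in this way, so these values cannot show whether the samples were paired. Low brightness limits the 14 probes near the floor, where no call was made. At some other probes the size of the difference depended on the background correction. With none, and with normexp on the summed intensity, ncam1a differed by -0.18 and -0.55, l1cama by -0.31 and -0.71, and anos1a by -0.52 and -0.89. Under the same settings anos1b (-0.86 and -0.91) and alcama (0.35 and 0.39) moved little.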
